A study of Mus musculus with 78 samples.

Results

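Kidney messenger RNA was compared between mice on a high-fat diet (HFD) and mice on a low-fat diet (LFD) that had all received 1 dose of tetrachloroethylene (PERC), a chlorinated solvent used in dry cleaning. The mice were males of the inbred strain C57BL/6J that had eaten the LFD (4% fat) or the HFD (31% fat) for 8 weeks. Each then received PERC at 300 mg/kg in Alkamuls-EL620 and saline and was killed 24 h later. Ages are not given in the labels used here. The libraries were chosen by their diet, treatment and regimen labels and by a minimum of 1000000 counts in genes. This gave 5 HFD and 4 LFD libraries, 9 of the 78 samples the labels name and of the 72 libraries used in all. LFD replicate 2, with 2966 counts, was left out. The diet difference was set beside that of HFD and LFD mice given vehicle in the single regimen (4 and 5 libraries). It was also set beside that of HFD and LFD mice given 5 daily PERC doses and killed 4 h after the last (8 and 9 libraries). The study, by its title, is about fatty liver and kidney effects of PERC, and the HFD is one of its fatty liver models. No liver and no blood or urine measure was analysed here.

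The proximal tubule, the main segment of the kidney cortex, takes organic anions and drug conjugates out of the blood with transporters of the Slc22 and Slco families and modifies them with P450s, esterases and glucuronosyltransferases. PERC is oxidized by P450s and is also conjugated with glutathione. The glutathione conjugate is trimmed to a cysteine conjugate in the kidney, which can be acetylated and excreted as a mercapturate or cleaved by β-lyases to reactive products. In mice, many proximal tubule genes also differ between the sexes and depend on androgens, and a circadian clock drives the daily course of transport and metabolism genes.

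The 9 libraries held 9365874 to 29273483 counts in genes. The lane read from the file names held HFD libraries in lanes 1, 2, 2, 3 and 3 and LFD libraries in lanes 1, 2, 3 and 3. The first principal component of log2 CPM (36.5% of variance) went with lane (r2 = 0.610) more than with diet (r2 = 0.0636), and the second (21.7%) went with diet (r2 = 0.707). CPM are counts scaled to a total of 1000000 counts in genes, and the libraries are given below in replicate order, 1, 3, 4 and 5 on LFD and 1 to 5 on HFD. Kidney markers were high throughout: the summed level of 18 proximal tubule markers was 38090 to 50070 CPM on LFD and 52810 to 58830 CPM on HFD. The LFD libraries were not alike. LFD replicate 1 held 122 CPM of 8 urothelium markers, against 16.4 to 34.1 CPM in the others except HFD replicate 4 with 9.92 CPM, and 24.0 CPM of the adipocyte gene Adipoq, against 1.23 to 6.21 CPM in the other 8. LFD replicates 1 and 4 held more of several fatty acid oxidation and glucocorticoid response genes than any other library, as described further on.

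A total of 383 of 14280 genes tested differed between HFD and LFD after the single PERC dose (2.68%, edgeR quasi-likelihood test, Benjamini-Hochberg adjusted p under 0.05, called below). Of these, 202 were higher (1.41%) and 181 lower (1.27%) on HFD. Among all 14280 genes, called or not, 7413 lay above 0 and 6867 below, the background for the sign counts of the gene lists below. The median log2 fold change was 0.01 over all genes tested and 0.70 in size over those called, and 108 called genes changed by more than 1 on the log2 scale. In 306 of the 383, the HFD and LFD libraries did not overlap, which held for 714 genes of all tested (5%, with HFD above in 2.58% and below in 2.42%). The direction was the same within each of the 3 lanes for 380 of the 383. The calls came from these same libraries, and groups that do not overlap must agree in every lane, so this is no independent check. Leaving out each library in turn kept 169 of the 383 calls in all 9 runs. The count was 204 without LFD replicate 1, 103 when these 9 libraries were fitted alone, 626 with DESeq2 and 817 with lane as a covariate. Without both LFD replicates 1 and 4, a choice made after the data were seen, 131 genes were called, 99 of them among the 383. All 383 kept their sign, but the libraries that remained had also served to call them. Of the 91 called genes named here, 46 were still called.

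The genes with the largest rises on HFD included transport and conjugation enzymes of the proximal tubule. Ugt2b37, a UDP-glucuronosyltransferase (chr5:87240493-87254804, GRCm38), stood at 33.8, 77.7, 66.5 and 64.5 CPM on LFD and at 382, 366, 249.6, 293 and 386 CPM on HFD. The groups did not overlap, and the means were 60.6 ± 18.8 CPM on LFD (SD, n = 4) and 335 ± 60.9 CPM on HFD (SD, n = 5) (log2 fold change 2.46, SE 0.23, adjusted p = 2.27e-06). Synpr, which encodes synaptoporin, a synaptic vesicle protein, had the largest fold change of the genes named, but from a level near the detection limit. It was at 0.0991, 0.05, 0 and 0.0861 CPM on LFD and 0.27, 0.683, 5.26, 0.921 and 4.12 CPM on HFD (log2 fold change 5.04, SE 1.07, adjusted p = 0.00865). The Synpr call was lost when the 9 libraries were fitted alone (adjusted p = 0.0889) and without LFD replicates 1 and 4 (adjusted p = 0.138). Rarres2, which encodes the adipokine chemerin (chr6:48569696-48572789), rose from 15.1, 10.4, 8.02 and 6.15 CPM on LFD to 53.6, 41.1, 38.3, 30 and 36.5 CPM on HFD, without overlap (log2 fold change 2.04, SE 0.24, adjusted p = 3.67e-05). Pzp, a protease inhibitor of the alpha-2-macroglobulin family, was at 27.6, 78.7, 94.9 and 123 CPM on LFD and 264, 254, 272, 308 and 352 CPM on HFD (log2 fold change 1.83, SE 0.25, adjusted p = 0.00021). Ttr, the thyroxine and retinol carrier transthyretin, was at 48.5, 69.1, 59.8 and 74.3 CPM on LFD and 109, 177, 215, 254 and 167 CPM on HFD (log2 fold change 1.55, SE 0.24, adjusted p = 0.000532). Pvalb, a calcium-binding protein of the distal convoluted tubule in mouse kidney, was at 11.4, 14.2, 10.9 and 11.8 CPM on LFD and 21.5, 24.9, 26.4, 24.9 and 22.1 CPM on HFD. Its groups did not overlap (log2 fold change 0.98, SE 0.13, adjusted p = 0.000146).

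Lower levels gave the other large rises. Cntnap5a, a contactin-associated protein, Hapln1, a hyaluronan link protein, Ctxn3, a cortexin, Col19a1, a collagen chain, Tm4sf4, a tetraspanin-like membrane protein, and Ctnna2, an alpha catenin, rose. Their log2 fold changes were 2.45, 2.33, 2.27, 2.07, 1.84 and 1.55, and the libraries of the diets did not overlap for any of the 6. Each of these 6 calls held in all 9 runs that left out a library. The Ctxn3 call was lost when the 9 libraries were fitted alone (adjusted p = 0.107), and that of Ctnna2 without LFD replicates 1 and 4 (adjusted p = 0.0979). Ccl28, a mucosal chemokine, overlapped between the diets. It stood at 6.34, 7.91, 14.6 and 10.8 CPM on LFD and 11.1, 14.9, 41.9, 39.7 and 48.9 CPM on HFD (log2 fold change 1.62, SE 0.37, adjusted p = 0.0154). Its call was lost without LFD replicate 1. Henmt1, a small RNA methyltransferase (log2 fold change 2.10, adjusted p = 0.0236), and the pseudogene Alms1-ps2 (log2 fold change 1.97, adjusted p = 0.018) also overlapped and lost their calls without LFD replicate 1, among other runs.

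Among the falls, Ugt1a10, a further glucuronosyltransferase (chr1:88055388-88219004), stood at 15.5, 3.6, 6.51 and 5.55 CPM on LFD and at 0.541, 0.581, 0.439, 0.818 and 1.1 CPM on HFD. The groups did not overlap (log2 fold change -3.49, SE 0.38, adjusted p = 1.82e-05). Bhmt, which remethylates homocysteine with betaine (chr13:93616675-93637961), was at 12.9, 11.2, 14.8 and 8.69 CPM on LFD and 1.35, 2.39, 2.52, 0.511 and 0.703 CPM on HFD (log2 fold change -2.93, SE 0.41, adjusted p = 0.000248). Ces1g, a carboxylesterase, fell from 18.6, 30.2, 22.4 and 46.6 CPM to 3.33, 3.28, 4.82, 6.44 and 5.72 CPM (log2 fold change -2.70, SE 0.34, adjusted p = 0.000111). Hpd, which acts in tyrosine breakdown, was lower on HFD as well, at 118, 70.7, 207 and 64.3 CPM on LFD and 41.7, 39.6, 29.6, 35.6 and 34.7 CPM on HFD (log2 fold change -1.66, SE 0.26, adjusted p = 0.000643). Stra6, the retinol uptake receptor (log2 fold change -2.15, adjusted p = 0.00113), and Camk1g, a calcium/calmodulin-dependent kinase (log2 fold change -1.58, adjusted p = 0.00216), fell without overlap between the libraries. Cyp2c69, a P450 (log2 fold change -1.76, adjusted p = 0.00458), and Serpina1a, a protease inhibitor (log2 fold change -2.02, adjusted p = 0.00458), also fell without overlap between the libraries. The Stra6 call was lost when the 9 libraries were fitted alone (adjusted p = 0.059). That of Serpina1a was lost without LFD replicates 1 and 4 (adjusted p = 0.0701). Kcnip2, a potassium channel subunit, was at 15.6, 4.55, 20.6 and 4.52 CPM on LFD and 3.06, 2.56, 1.21, 2.15 and 1.71 CPM on HFD (log2 fold change -2.34, SE 0.37, adjusted p = 0.000671). LFD replicates 1 and 4 were the highest, and without them the log2 fold change was -1.03 and was not called (adjusted p = 0.134). It was not called either when the 9 libraries were fitted alone (adjusted p = 0.0569).

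**Figure D1:**
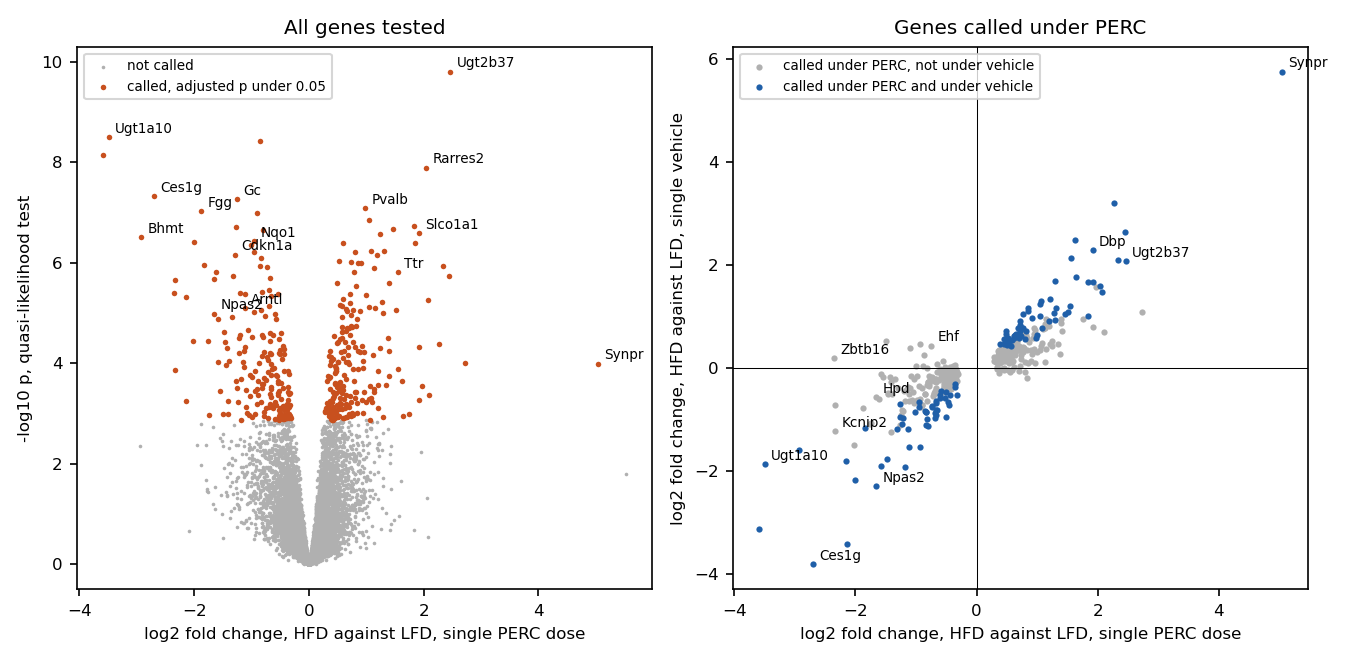
Left, each of 14280 genes by its log2 fold change between HFD and LFD after a single PERC dose (x) and −log10 p of the quasi-likelihood test (y), with the 383 called genes in orange. Right, the 383 genes by that log2 fold change (x) and by the one between HFD and LFD vehicle mice (y), with the 109 called in both in blue; 358 of the 383 had the same sign in both.

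Of 14 genes that are known to be higher in male than in female mouse kidney, 8 rose on HFD and none fell, where 1.41% of all genes rose. The median log2 fold change was 0.69 over the 14 and 0.01 over all genes. Slco1a1, an organic anion transporter (chr6:141907282-141946962), stood at 69.2, 100.2, 169 and 200.1 CPM on LFD and 368, 386, 604, 509 and 678 CPM on HFD (log2 fold change 1.92, SE 0.27, adjusted p = 0.000221). Odc1, the androgen-responsive ornithine decarboxylase that starts polyamine synthesis (chr12:17544794-17551505), was at 226, 365, 264 and 444 CPM on LFD and 492, 577, 1196, 887 and 799.9 CPM on HFD (log2 fold change 1.28, SE 0.22, adjusted p = 0.00136). Kap, the kidney androgen-regulated protein and one of the most abundant transcripts (chr6:133849851-133853762), was at 15806, 16846, 19484 and 19163 CPM on LFD and 23998, 23560, 29121, 26913 and 28782 CPM on HFD (log2 fold change 0.57, SE 0.11, adjusted p = 0.00302). None of these 3 overlapped between the diets. The other 5 that rose were Cyp2j13 (log2 fold change 0.94, adjusted p = 0.0101) and Cyp4b1 (log2 fold change 0.69, adjusted p = 0.00664), both P450s, and 3 transporters. These were Slc7a13, which carries amino acids (log2 fold change 0.80, adjusted p = 0.0216), and the Slc22 family members Slc22a28 (log2 fold change 0.96, adjusted p = 0.0216) and Slc22a30 (log2 fold change 0.79, adjusted p = 0.0154). The last 3 lost their calls without LFD replicate 1 and, separately, without LFD replicate 4. With both of these libraries left out, 2 of the 14 were called and the median was 0.47. When the 9 libraries were fitted alone, Slco1a1 was still called (adjusted p = 0.0235). Kap (adjusted p = 0.0591), Odc1 (0.0661), Cyp4b1 (0.11) and Slc22a30 (0.142) were not. Neither were Slc7a13 (adjusted p = 0.165), Cyp2j13 (0.172) and Slc22a28 (0.222). With libraries of few counts kept, the calls of Kap (adjusted p = 0.435), Cyp4b1 (0.201) and Slc7a13 (0.0821) were lost too.

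Of 11 genes that are known to be higher in females, 2 fell (against 1.27% of all genes) and none rose. Their median was -0.59, and 10 of 11 lay below 0. Cyp2a5, a P450 (chr7:26835305-26843548), was at 189, 85, 185 and 90.9 CPM on LFD and 52.8, 32.1, 41, 36.9 and 29.2 CPM on HFD (log2 fold change -1.83, SE 0.28, adjusted p = 0.000456), without overlap. Sult1c2, a sulfotransferase, was at 101, 112, 77.1 and 124 CPM on LFD and 77.6, 62.9, 66.5, 74.5 and 84.2 CPM on HFD (log2 fold change -0.50, SE 0.13, adjusted p = 0.0432). Its libraries overlapped, and 7 of the 9 runs that left out a library lost the call. The summed proximal tubule markers share Kap and Slc7a13 with the male list and also include Slc22a6 and Slc7a7. Of the 18 markers, 10 lay above 0 and 8 below, with a median of 0.17. Of these markers, 3 were called higher and 1, Slc7a7, lower. The sum was higher in every HFD library (mean difference 0.38 on the log2 scale, exact two-sided permutation test p = 0.00794, the smallest that 5 against 4 libraries allow, 0.0529 adjusted over 20 cell types). Without Kap the ranges overlapped, at 22030 to 30590 CPM on LFD and 27230 to 30370 CPM on HFD (difference 0.22, exact permutation p = 0.0794). In whole kidney, more proximal tubule cells and more of these RNAs per cell cannot be told apart.

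**Figure D2:**
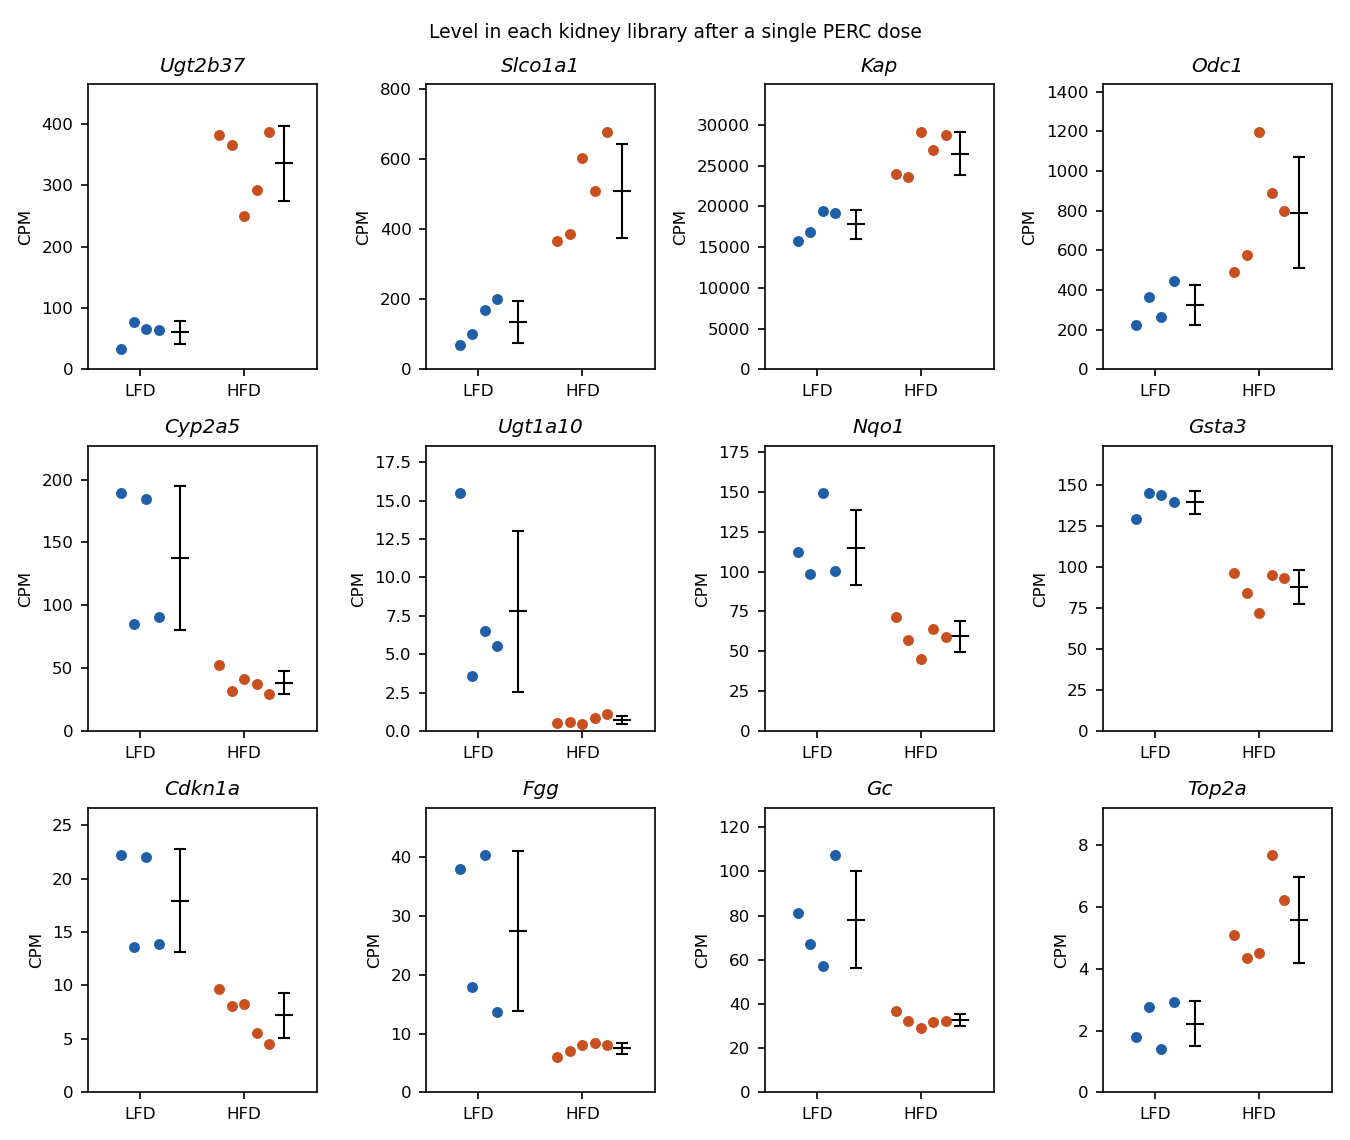
CPM in each library (points, 4 LFD in blue and 5 HFD in orange) of 12 genes, with the mean and SD of each group in black beside its points. The HFD points lie wholly above the LFD points for Ugt2b37, Slco1a1, Kap, Odc1 and Top2a and wholly below them for the other 7.

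Of 27 transporters of organic ions and drugs, 8 rose (against 1.41% of all genes) and none fell, although the list's median was -0.015 and 14 of 27 lay below 0. With LFD replicates 1 and 4 left out, 3 of the 27 were called and the median was 0.10. Slc22a6, the organic anion transporter OAT1 of the basolateral membrane (chr19:8618039-8628299), stood at 618, 913, 989.8 and 602 CPM on LFD and 1188, 1472, 1403, 1127 and 1023 CPM on HFD (log2 fold change 0.67, SE 0.17, adjusted p = 0.0325). Slc22a2, the organic cation transporter OCT2 (chr17:12584132-12628488), was at 295, 384, 382 and 339 CPM on LFD and 447, 509, 521, 505 and 438 CPM on HFD (log2 fold change 0.47, SE 0.10, adjusted p = 0.0104). Neither overlapped between the diets, but both calls were lost without LFD replicate 1, and that of Slc22a6 in 4 other runs. Slc22a4, the ergothioneine transporter (log2 fold change 0.52, adjusted p = 0.000423), and Slc22a22, a prostaglandin transporter in mice (log2 fold change 0.91, adjusted p = 0.000425), rose without overlap and kept their calls in every run that left out a library. Slco1a6 (log2 fold change 0.65, adjusted p = 0.0321) overlapped between the diets, and 6 of the 9 runs lost it. The remaining 3 are Slco1a1, Slc22a28 and Slc22a30 above. Of 19 amino acid transporters, 2 rose and 1 fell, where 1.41% of all genes rose and 1.27% fell. The risers were Slc7a13 above and the proline transporter Slc6a20b (log2 fold change 0.48, adjusted p = 0.0388), which 6 of the 9 runs lost. The faller was Slc7a7, which exports cationic amino acids (log2 fold change -0.50, adjusted p = 0.00592). None of the 19 was called with LFD replicates 1 and 4 left out.

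P450s and other drug-metabolizing enzymes changed in both directions: of 40 tested, 8 rose and 9 fell, where 2.68% of all genes were called. Of these 40, 5 were called higher and 5 lower with LFD replicates 1 and 4 left out. Beside Ugt2b37, Cyp2j13 and Cyp4b1, the risers were Ugt2b38 (log2 fold change 1.08, adjusted p = 0.000328), Cyp51, a P450 of cholesterol synthesis (log2 fold change 0.77, adjusted p = 0.00459), and 3 carboxylesterases. The last were Ces1f (log2 fold change 0.78, adjusted p = 0.000532), Ces2c (log2 fold change 0.71, adjusted p = 0.00139) and Ces1d (log2 fold change 0.45, adjusted p = 0.0419). Of the carboxylesterases named, these 3 rose and Ces1g fell. The Ces1d call was lost in 7 of the 9 runs that left out a library. Beside Ugt1a10, Ces1g, Cyp2a5 and Sult1c2, the fallers included Aldh1a1, which makes retinoic acid from retinal. It stood at 35.2, 43, 73 and 30.3 CPM on LFD and 17.2, 15.4, 9.32, 13.2 and 18.8 CPM on HFD (log2 fold change -1.61, SE 0.25, adjusted p = 0.000532). Its neighbour Aldh1a7 had a log2 fold change of -0.86 and was not called (adjusted p = 0.0695), although its libraries did not overlap. The P450s Cyp2d22 (log2 fold change -1.20, adjusted p = 0.00105) and Cyp2d12 (log2 fold change -0.93, adjusted p = 0.0109) fell without overlap, and the Cyp2d12 call was lost without LFD replicate 4. Ugt1a2 (log2 fold change -1.75, adjusted p = 0.0438) and the sulfotransferase Sult1a1 (log2 fold change -0.89, adjusted p = 0.0235) fell with overlapping libraries, and 6 and 4 of the 9 runs lost their calls. Multi-mapping reads were kept out of the gene counts, so values within the Ugt1a, Ugt2b, Ces1, Ces2, Cyp2a, Cyp2c, Cyp2d, Cyp4a, Slc22, Slco1a, Gsta, Aldh1a, Eci and Serpina1 families are uncertain, and the Ugt1a genes also share exons.

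Of 25 targets of NRF2, the factor that induces antioxidant and conjugation enzymes, 5 fell on HFD (against 1.27% of all genes) and none rose. The median log2 fold change was -0.31, and 20 of 25 lay below 0, against 6867 of all 14280 genes. Nqo1, the NAD(P)H quinone reductase (chr8:107388225-107403206), stood at 112, 98.2, 149.1 and 101 CPM on LFD and 71.4, 57.2, 44.9, 64.1 and 58.7 CPM on HFD (log2 fold change -0.95, SE 0.14, adjusted p = 0.000269). Gsta3, a glutathione transferase (chr1:21240589-21265661), was at 129.2, 144.7, 143.99 and 139.2 CPM on LFD and 96.2, 83.9, 71.6, 94.9 and 93.2 CPM on HFD (log2 fold change -0.66, SE 0.11, adjusted p = 0.00111). Gsta4, a transferase for lipid aldehydes (log2 fold change -0.85, adjusted p = 0.000456), and Cbr1, a carbonyl reductase (log2 fold change -1.11, adjusted p = 0.00106), fell too. So did Abcc4, an efflux pump for organic anions and conjugates (log2 fold change -0.80, adjusted p = 0.00021). The 5 genes did not overlap between the diets and kept their calls in all 9 runs that left out a library. With both LFD replicates 1 and 4 left out, 4 of the 25 were called, and Cbr1 was not (log2 fold change -0.64, adjusted p = 0.104).

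The genes that carry PERC's glutathione conjugate onward changed in both directions. Of 28 genes of glutathione conjugation and the mercapturate route, 2 rose and 3 fell, with a median of -0.05, where 1.41% of all genes rose and 1.27% fell. With LFD replicates 1 and 4 left out, none of the 28 was called and the median was 0.01. Acy3, an aminoacylase that acts on mercapturates (chr19:3986570-3990007), stood at 608, 1189.8, 731 and 804 CPM on LFD and 1496, 2002, 2434, 1761 and 1566 CPM on HFD (log2 fold change 1.15, SE 0.20, adjusted p = 0.00164), without overlap. Anpep, aminopeptidase N, which trims cysteinylglycine conjugates (chr7:79821803-79861059), was at 144.9, 189, 213 and 184 CPM on LFD and 240.5, 255, 247, 260.1 and 251 CPM on HFD (log2 fold change 0.46, SE 0.11, adjusted p = 0.0168). The Anpep call was lost without LFD replicate 1. Kyat3, a kynurenine aminotransferase with cysteine conjugate β-lyase activity (chr3:142701051-142746870), was at 90.6, 67.1, 106 and 76.8 CPM on LFD and 56.8, 44.6, 47.4, 60.2 and 51 CPM on HFD (log2 fold change -0.71, SE 0.15, adjusted p = 0.00785). The Kyat3 call was lost without LFD replicate 4. Gsr, glutathione reductase, fell without overlap (log2 fold change -0.44, adjusted p = 0.00638). Gstt3, a theta class transferase, fell with overlapping libraries (log2 fold change -0.36, adjusted p = 0.0216), and 5 of the 9 runs that left out a library lost it.

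**Figure D3:**
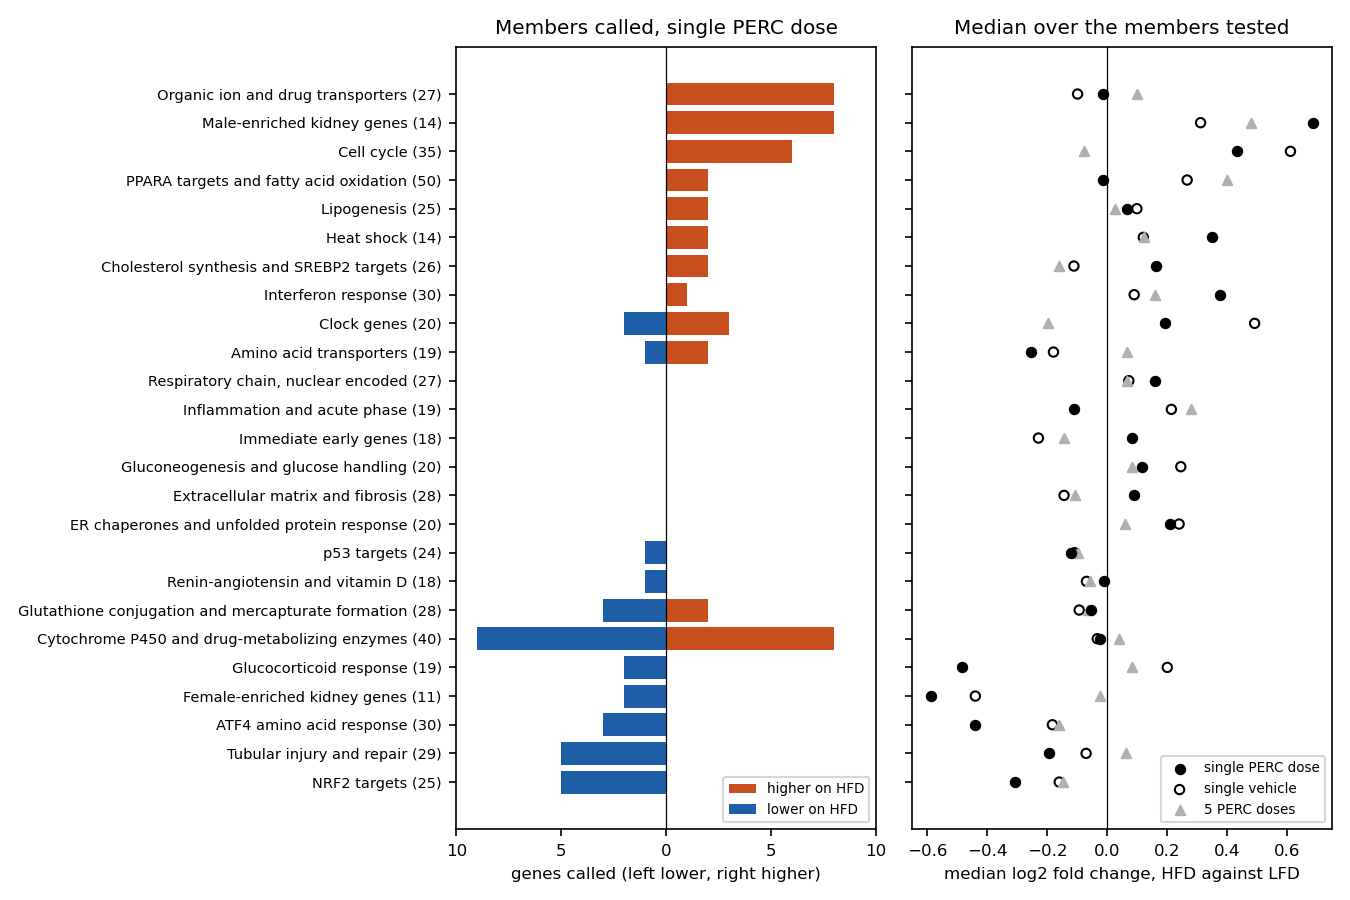
Left, the number of members called higher (orange) or lower (blue) on HFD after a single PERC dose in each of 25 pathway lists, with the number tested in brackets. Right, each list's median log2 fold change between HFD and LFD after a single PERC dose (filled circles), in single-regimen vehicle mice (open circles) and after 5 PERC doses (triangles). The male-enriched list has the highest median after the single dose (0.69) and the female-enriched list the lowest (-0.59).

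Of 29 genes of tubular injury and repair, 5 fell (against 1.27% of all genes) and none rose, with a median of -0.19. With LFD replicates 1 and 4 left out, 4 were called lower and the median turned to 0.15. Havcr1, which encodes the injury marker KIM-1 and is induced in damaged proximal tubule, did not differ beyond its spread. It stood at 1.68, 12.2, 1.66 and 25.3 CPM on LFD and 7.34, 4.00, 1.97, 3.17 and 4.82 CPM on HFD (log2 fold change -1.25, SE 0.56, adjusted p = 0.295). LFD replicates 3 and 5 were the highest for Havcr1 and LFD replicates 1 and 4 the lowest. With the latter left out, Havcr1 was called lower on HFD (log2 fold change -2.10, SE 0.42, adjusted p = 0.0155). Leaving out the lowest LFD libraries enlarges the fall by construction, so no conclusion is drawn from that call. Without 1 library, the log2 fold change of Havcr1 ran from -1.60 to -0.28. The largest adjusted p was 0.859, without LFD replicate 5. The neutrophil gelatinase-associated lipocalin gene Lcn2, a further injury marker, was at 8.82, 2.35, 5.72 and 1.89 CPM on LFD and 2.12, 2.22, 2.74, 2.05 and 1.51 CPM on HFD. It was not called (log2 fold change -1.10, SE 0.42, adjusted p = 0.192). Cdkn1a, the p53 target p21 that halts the cell cycle (chr17:29090976-29100727), fell from 22.2, 13.6, 22 and 13.9 CPM on LFD to 9.69, 8.1, 8.22, 5.52 and 4.52 CPM on HFD. The groups did not overlap (log2 fold change -1.29, SE 0.19, adjusted p = 0.000341). It was the 1 gene called among 24 p53 targets. Spp1, osteopontin, was at 1338, 1033, 1056 and 1266 CPM on LFD and 924, 659.6, 659.5, 776 and 862 CPM on HFD (log2 fold change -0.60, SE 0.11, adjusted p = 0.00186), again without overlap.

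The other 3 were the fibrinogen chains. Fga, Fgb and Fgg lie within 42.1 kb on chromosome 3 (chr3:83007724-83049863, GRCm38) and encode the chains of the clotting protein, which injured tubule cells also make. Fgg stood at 38, 17.9, 40.4 and 13.6 CPM on LFD and 6.08, 7.04, 8.00, 8.39 and 8.03 CPM on HFD (log2 fold change -1.88, SE 0.25, adjusted p = 0.000146). Fga was at 114, 51.9, 130.3 and 48.1 CPM on LFD and 38.6, 26.1, 25.7, 34 and 36 CPM on HFD (log2 fold change -1.42, SE 0.28, adjusted p = 0.0056). Fgb was at 6.94, 4.1, 3.77 and 3.49 CPM on LFD and 1.89, 1.23, 1.97, 2.35 and 2.11 CPM on HFD (log2 fold change -1.27, SE 0.29, adjusted p = 0.0155). No chain overlapped between the diets, and Fga and Fgg were highest in LFD replicates 1 and 4. With both of these libraries left out, Fgg was still called (log2 fold change -1.08, adjusted p = 0.0102), and Fga (-0.64, adjusted p = 0.467) and Fgb (-1.02, adjusted p = 0.211) were not. The Fgb call was also lost without LFD replicate 1 alone.

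As all the fibrinogen chains were lower on HFD, their promoters were searched for a described element, and the windows with a match are shown. In liver, fibrinogen genes answer interleukin-6 through STAT3, and the element CTGGGAA has been described in fibrinogen promoters. The RefSeq windows (GRCm38.p6) run from 250 bases before to 50 after the annotated start, 5′ to 3′ on the gene's strand, with matches to CTGGGAA on either strand in capitals.
Fgg, chr3:83007474-83007773, plus strand: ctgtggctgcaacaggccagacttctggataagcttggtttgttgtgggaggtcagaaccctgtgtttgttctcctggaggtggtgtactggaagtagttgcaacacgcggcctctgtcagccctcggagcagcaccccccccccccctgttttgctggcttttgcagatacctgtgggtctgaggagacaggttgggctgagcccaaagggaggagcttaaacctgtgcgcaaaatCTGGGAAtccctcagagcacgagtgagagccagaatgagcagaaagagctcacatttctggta
Fgb, chr3:83049814-83050113, minus strand: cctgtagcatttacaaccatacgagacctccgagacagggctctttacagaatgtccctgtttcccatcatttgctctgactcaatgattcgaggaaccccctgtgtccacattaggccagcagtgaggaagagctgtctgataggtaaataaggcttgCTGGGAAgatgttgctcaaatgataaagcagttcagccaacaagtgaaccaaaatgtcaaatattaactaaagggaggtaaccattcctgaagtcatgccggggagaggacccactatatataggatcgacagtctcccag
Each of these windows held 1 match, at bases -13 to -7 of Fgg and -91 to -85 of Fgb, counting -1 as the base before the start. The Fga window held none. The same letters occurred in 11.1% of 32851 RefSeq promoter windows.

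Of 30 targets of ATF4, the factor of the amino acid and stress response, 3 fell (against 1.27% of all genes) and none rose. Their median was -0.44, and 24 of 30 lay below 0, against 6867 of all 14280 genes. Psat1, which acts in serine synthesis (chr19:15904678-15947337), stood at 75.5, 53, 84.4 and 67.2 CPM on LFD and 40.6, 40.4, 38, 43.5 and 42.4 CPM on HFD (log2 fold change -0.77, SE 0.14, adjusted p = 0.00202), without overlap. Slc7a5, the large neutral amino acid transporter LAT1 (log2 fold change -1.05, adjusted p = 0.0445), and Stc2, the secreted stanniocalcin 2 (log2 fold change -0.71, adjusted p = 0.047), fell at low levels. Their calls were lost in 5 and 7 of the 9 runs that left out a library. Asns, asparagine synthetase, was not called (log2 fold change -0.78, SE 0.26, adjusted p = 0.112). With LFD replicates 1 and 4 left out, none of the 30 was called and the median was -0.19. Gc, the vitamin D binding protein (chr5:89417522-89457898), was the 1 gene called among 18 of the renin-angiotensin and vitamin D systems. It was at 81.1, 67, 57 and 107 CPM on LFD and 36.9, 32.4, 29.3, 31.8 and 32.4 CPM on HFD, without overlap (log2 fold change -1.26, SE 0.16, adjusted p = 0.000111). Its call held in every run that left out a library.

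Of 50 fatty acid oxidation genes and other targets of PPARA, the fatty acid sensor, 2 rose (against 1.41% of all genes) and none fell. The median log2 fold change was -0.01. One riser was Eci3, a peroxisomal enoyl-CoA isomerase, at 152, 157, 218 and 194 CPM on LFD and 288, 246, 303, 288 and 342 CPM on HFD (log2 fold change 0.70, SE 0.13, adjusted p = 0.00303). The other was Cyp4a32, a fatty acid hydroxylase (log2 fold change 1.13, adjusted p = 0.0198), whose call was lost without HFD replicate 3, without LFD replicate 1 and without LFD replicate 4. Cyp4a14, a strongly PPARA-responsive hydroxylase, stood at 1818, 422, 3443 and 435 CPM on LFD and 760.1, 485, 193, 329 and 476 CPM on HFD and was not called (log2 fold change -1.77, SE 0.77, adjusted p = 0.272). Neither was Cyp4a10 (log2 fold change -0.87, SE 0.32, adjusted p = 0.172). Pdk4, which holds pyruvate back from oxidation (log2 fold change -0.84, SE 0.52, adjusted p = 0.499), was not called either. For these 3 genes, LFD replicates 1 and 4 lay above LFD replicates 3 and 5 and above every HFD library. Leaving both out moved the log2 fold changes of Cyp4a14 to 0.07 and of Pdk4 to 1.07, neither of them called. The list's median moved to 0.43, with 3 of 50 called higher. Both libraries were picked after such genes were seen to be high in them, so leaving them out raises these values by construction.

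**Figure D4:**
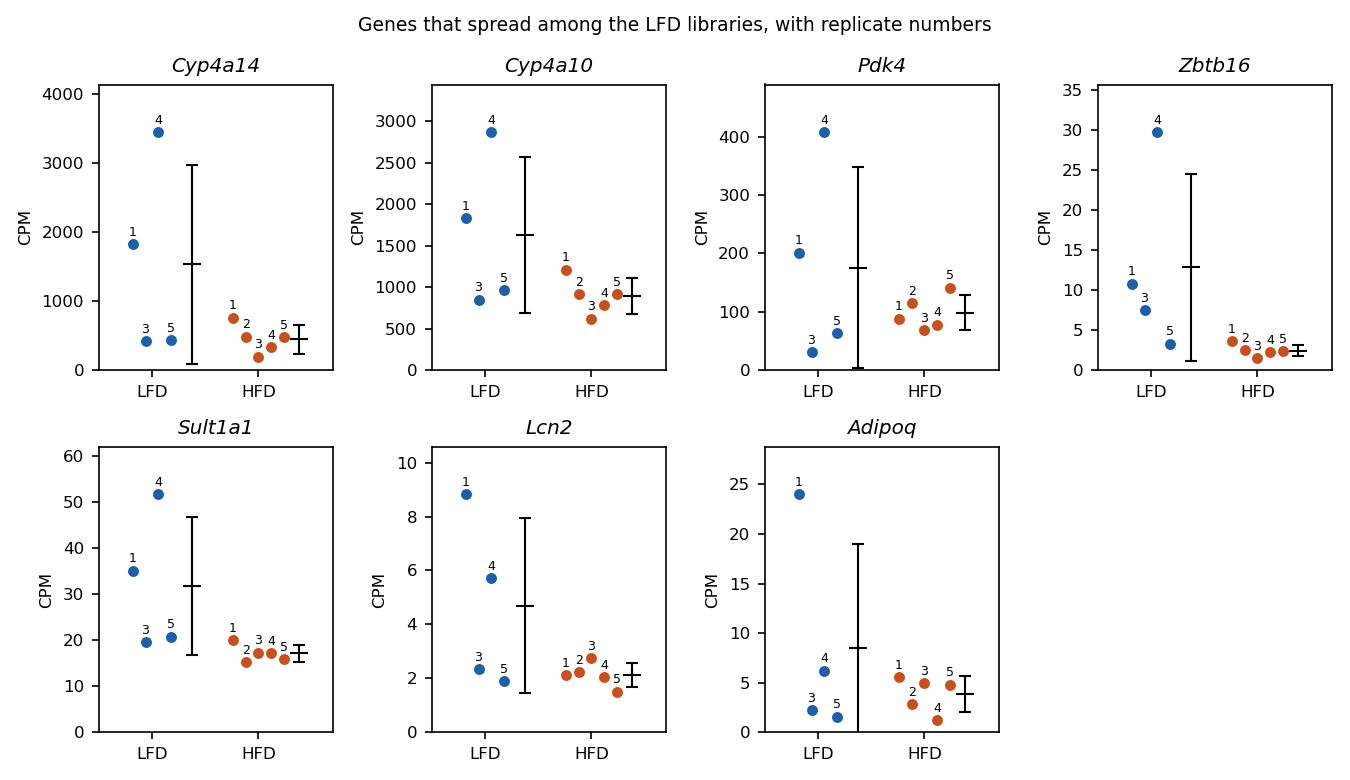
CPM in each library (points with replicate numbers, LFD in blue and HFD in orange) of 7 genes, with the mean and SD of each group in black beside its points. LFD replicates 1 and 4 lie above all other libraries in Cyp4a14, Cyp4a10, Pdk4, Zbtb16, Sult1a1 and Lcn2, and LFD replicate 1 alone stands far above the rest in Adipoq.

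Of 19 glucocorticoid response genes tested, 2 fell (against 1.27% of all genes) and none rose. Their median was -0.48, and 17 of 19 lay below 0. Zbtb16, a transcription factor that glucocorticoids induce (chr9:48654297-48836222), was at 10.8, 7.46, 29.7 and 3.31 CPM on LFD and 3.6, 2.46, 1.53, 2.25 and 2.41 CPM on HFD (log2 fold change -2.35, SE 0.39, adjusted p = 0.00105). Sult1a1 above was the other. Fkbp5, a chaperone gene used as a readout of glucocorticoid action, was not called, at 79.5, 83.8, 182 and 64.5 CPM on LFD and 92.4, 71.7, 96, 124.8 and 86.4 CPM on HFD (log2 fold change -0.12, SE 0.24, adjusted p = 0.908). Without LFD replicates 1 and 4 the list's median was 0.02 and none was called (Zbtb16 log2 fold change -1.09, adjusted p = 0.0701). As these libraries were picked after such genes were seen to be high in them, that rise follows in part from the choice. Ehf, an epithelial ETS factor, was lower on HFD (log2 fold change -0.75, SE 0.17, adjusted p = 0.0151). Its libraries overlapped, and its call was lost without LFD replicate 1. Adipoq, the fat cell hormone adiponectin, was not called (log2 fold change -1.07, SE 0.79, adjusted p = 0.616). None of 12 white adipocyte markers was called, and their median was -0.84 (0.36 without LFD replicates 1 and 4). Their summed level was 871.2 to 1412 CPM on LFD and 618 to 1423 CPM on HFD. Their part in these results was not tested beyond the covariate fit reported in the closing section.

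Of 26 genes of cholesterol synthesis, 2 rose and none fell, and 23 of 26 lay above 0 (median 0.16), where 1.41% of all genes rose. With LFD replicates 1 and 4 left out, the median turned to -0.07, and in vehicle mice it was -0.11. Cyp51 stood at 202, 285, 201 and 293 CPM on LFD and 432, 367, 402, 492 and 391 CPM on HFD (log2 fold change 0.77, SE 0.15, adjusted p = 0.00459). Ebp, a sterol isomerase, was at 72.7, 81.3, 87.8 and 69.2 CPM on LFD and 106, 116, 112, 103 and 105.4 CPM on HFD (log2 fold change 0.48, SE 0.08, adjusted p = 0.00074). Neither overlapped between the diets, but without LFD replicates 1 and 4 the Cyp51 call was lost (adjusted p = 0.223). Of 25 lipogenesis genes, Acss2, which makes acetyl-CoA from acetate (log2 fold change 0.38, adjusted p = 0.00819), and Me1, malic enzyme (log2 fold change 0.64, adjusted p = 0.0458), rose. Their calls were lost without LFD replicate 1, among other runs for Me1. Scd1, the stearoyl-CoA desaturase, was not called (log2 fold change -0.31, SE 0.38, adjusted p = 0.817).

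Of 35 cell cycle genes tested, 6 rose on HFD (against 1.41% of all genes) and none fell, with a median of 0.43 and 27 of 35 above 0. Leaving out LFD replicates 1 and 4 gave 2 calls and a median of 0.45. In single-regimen vehicle mice, 7 were called higher on HFD and 1 lower (median 0.61), where 0.875% of all genes were higher. After 5 PERC doses, 1 was called higher and none lower (median -0.08), where 3.02% of all genes were higher. Top2a, topoisomerase II alpha of dividing cells (chr11:98992943-99024189), stood at 1.78, 2.75, 1.42 and 2.93 CPM on LFD and 5.09, 4.34, 4.49, 7.67 and 6.22 CPM on HFD (log2 fold change 1.29, SE 0.23, adjusted p = 0.00185). Tk1, thymidine kinase, was at 4.36, 3.85, 4.79 and 3.36 CPM on LFD and 7.03, 7.62, 7.13, 7.77 and 6.33 CPM on HFD (log2 fold change 0.82, SE 0.13, adjusted p = 0.000844). Neither overlapped between the diets, and both calls held in all 9 runs that left out a library. The Top2a call was lost without LFD replicates 1 and 4 (adjusted p = 0.0876) and when the 9 libraries were fitted alone (adjusted p = 0.0531). Tyms, thymidylate synthase (log2 fold change 0.48, adjusted p = 0.0183), and Cdk1, the mitotic kinase (log2 fold change 1.20, adjusted p = 0.0109), also rose without overlap. Mki67, a proliferation marker (log2 fold change 1.10, adjusted p = 0.03), and Ccna2, cyclin A2 (log2 fold change 0.74, adjusted p = 0.0446), did so as well. Each of these 4 lost its call in 1 or more of those runs. Levels were low, below 20 CPM for all 6. The 15 macrophage markers had a median of 0.41, with 14 of 15 above 0 and none called. Their summed level was higher in every HFD library, at 640.4 to 792 CPM against 456 to 637 CPM on LFD (exact permutation p = 0.00794, 0.0529 adjusted over 20 cell types). Their part in the cell cycle genes was not tested.

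Of 14 heat shock genes, 2 rose, where 1.41% of all genes did. They were the cochaperones Ahsa1 (log2 fold change 0.41, adjusted p = 0.0302) and Dnaja1 (log2 fold change 0.72, adjusted p = 0.0248). Both had overlapping libraries, and both were lost in 5 of the 9 runs that left out a library. Of 30 interferon response genes, 28 lay above 0 (median 0.38), where 7413 of all 14280 genes did. Only the nucleic acid sensor Zbp1 was called (log2 fold change 0.99, adjusted p = 0.03), and 6 of the 9 runs lost it. No gene was called among the 20 ER chaperone and unfolded protein response genes, the 28 matrix and fibrosis genes, the 27 nuclear-encoded respiratory chain genes, the 20 genes of glucose handling, the 19 of inflammation and acute phase and the 18 immediate early genes. Of the 7 hepatocyte markers tested, Ttr rose and Serpina1a fell, and the summed hepatocyte markers were 469.5 to 815 CPM on LFD and 516 to 873 CPM on HFD. Apob alone, the largest part of that sum, was at 311 to 714 CPM. The summed level of 10 skeletal muscle markers was higher in every HFD library (24.8 to 28.9 CPM against 13.7 to 17.2 CPM), but without Pvalb it was 2.79 to 3.57 CPM on LFD and 1.64 to 3.33 CPM on HFD.

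Clock genes were called in both directions. In the mammalian clock, Arntl and Clock or Npas2 form the activator that binds E-boxes (CACGTG), the Per and Cry proteins repress it, and ROR and REV-ERB factors drive and repress Arntl through the ROR element (TAGGTCA). Of 20 clock genes tested, 3 rose and 2 fell, where 1.41% of all genes rose and 1.27% fell. Arntl (chr7:113207465-113314126) stood at 35.3, 41.8, 21.8 and 37.6 CPM on LFD and 18.2, 14, 12.2, 18.5 and 15.4 CPM on HFD (log2 fold change -1.12, SE 0.20, adjusted p = 0.00166). Npas2 (chr1:39193731-39363236) was at 20.5, 32.9, 12.4 and 22.4 CPM on LFD and 5.99, 7.41, 4.71, 8.29 and 8.63 CPM on HFD (log2 fold change -1.66, SE 0.29, adjusted p = 0.00185). Both activators were lower in every HFD library than in every LFD library. The output factor Dbp (chr7:45705088-45710203) was at 5.15, 1.85, 10.6 and 3.01 CPM on LFD and 15.9, 23.5, 29.5, 13.8 and 14.2 CPM on HFD (log2 fold change 1.91, SE 0.47, adjusted p = 0.0288). Tef, which is related to Dbp (chr15:81802421-81826863), was at 213, 164, 315 and 187 CPM on LFD and 358, 351, 370.2, 372 and 348 CPM on HFD (log2 fold change 0.71, SE 0.14, adjusted p = 0.00386). Per3, a period gene (chr4:151003652-151044665), was at 17.9, 8.71, 31.6 and 21.6 CPM on LFD and 42.7, 41.8, 48.1, 41.6 and 35.1 CPM on HFD (log2 fold change 1.06, SE 0.25, adjusted p = 0.0182). These 3 were higher in every HFD library. The Per3 call was lost without LFD replicate 1, and the Dbp call in 5 of the 9 runs that left out a library.

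Promoters of the called clock genes were searched for these elements, with RefSeq windows as above and matches on either strand in capitals. Shown are windows of Arntl and Tef, which moved in opposite directions and were the only 2 of these genes with a match. For Arntl, the window that held the match is shown.
Arntl, chr7:113207261-113207560, plus strand: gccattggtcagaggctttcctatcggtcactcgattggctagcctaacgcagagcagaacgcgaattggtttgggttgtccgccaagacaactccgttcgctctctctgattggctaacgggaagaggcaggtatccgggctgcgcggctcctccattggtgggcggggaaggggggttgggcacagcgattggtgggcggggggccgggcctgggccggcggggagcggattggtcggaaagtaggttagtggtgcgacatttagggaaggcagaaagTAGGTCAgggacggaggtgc
Tef, chr15:81802423-81802722, plus strand: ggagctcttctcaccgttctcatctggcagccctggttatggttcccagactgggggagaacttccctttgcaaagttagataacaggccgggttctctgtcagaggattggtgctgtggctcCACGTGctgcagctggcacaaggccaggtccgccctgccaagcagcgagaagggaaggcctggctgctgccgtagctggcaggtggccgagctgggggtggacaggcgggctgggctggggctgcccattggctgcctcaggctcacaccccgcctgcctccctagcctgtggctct
The Arntl window held 1 ROR element at bases 31 to 37 after the start and no E-box. The Tef window held 1 E-box, 5′ of the start, and no ROR element. A second Tef window also held 1 E-box, and a second Arntl window and those of Npas2, Dbp and Per3 held neither. E-boxes occurred in 7.15% and ROR elements in 2.61% of the 32851 windows, and an E-box reads the same on both strands.

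The diet difference after 1 PERC dose was set beside that in vehicle mice of the same regimen, which have libraries of their own and whose time of death the labels do not give. Between HFD and LFD vehicle libraries, 234 genes were called (1.64%), of which 109 were lower (0.763%) and the rest higher (0.875%). Of the 234, 109 were also called after PERC, all in the same direction, which is 28.5% of the PERC calls and 46.6% of the vehicle calls. Of the 383 PERC calls, 358 had the same sign under vehicle (93.5%), against 60.6% of all genes tested. Ugt2b37 (log2 fold change 2.07, adjusted p = 9.46e-06 under vehicle), Ces1g (log2 fold change -3.82, adjusted p = 5.27e-06), Slco1a1 (log2 fold change 1.66, adjusted p = 0.000495) and Nqo1 (log2 fold change -0.67, adjusted p = 0.00872) were among the shared calls. So were Gsta3 (log2 fold change -0.82, adjusted p = 0.000237), Arntl (log2 fold change -1.54, adjusted p = 0.000185) and Npas2 (log2 fold change -2.31, adjusted p = 0.000219). Not called under vehicle were Cdkn1a (log2 fold change -0.39, adjusted p = 0.509), Hpd (log2 fold change -0.57, adjusted p = 0.441), Fgg (log2 fold change -0.79, adjusted p = 0.135) and Fga (log2 fold change -0.18, adjusted p = 0.996). Nor were Psat1 (log2 fold change -0.23, adjusted p = 0.667), Acy3 (log2 fold change 0.37, adjusted p = 0.561), Zbtb16 (log2 fold change 0.18, adjusted p = 0.996) and Ehf (log2 fold change 0.43, adjusted p = 0.308). A call in one comparison and not in the other does not show a difference. The difference itself, the diet effect under PERC minus that under vehicle, was called for 0 of 14280 genes with edgeR (smallest adjusted p = 0.374, 791 genes at an unadjusted p under 0.05), for 3 with DESeq2 and for 1 with lane as a covariate.

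After 5 PERC doses, 891 of 14614 genes were called between HFD and LFD (6.1%, with 3.02% higher and 3.07% lower). Of the 383 genes called after 1 dose, 120 were called in the same direction after 5, which is 31.3% of the 1-dose calls and 13.5% of the 5-dose calls, and 12 in the opposite direction. The 1-dose and 5-dose mice also differed in the hours from the last dose to death (24 and 4) and in their lanes, so the number of doses, the hour and the lanes cannot be told apart. The diet difference after 1 dose differed from that after 5 doses for 108 of 15139 genes (0.713%), 35 higher and 73 lower. The count was 32 without LFD replicates 1 and 4, 53 without LFD replicate 4 alone and 189 without LFD replicate 3 or 5 of the single regimen. Among the 10 genes of smallest p were 4 clock genes. Npas2 and Arntl were higher on HFD after 5 doses (log2 fold change 1.06, adjusted p = 0.00108 and log2 fold change 1.36, adjusted p = 0.000242). Dbp and Per3 were lower (log2 fold change -1.25, adjusted p = 0.000216 and log2 fold change -0.46, adjusted p = 0.00726). The differences between the regimens were -2.72 (SE 0.37, adjusted p = 6.39e-06) for Npas2 and -2.48 (SE 0.37, adjusted p = 2.16e-05) for Arntl. They were 3.16 (SE 0.48, adjusted p = 2.42e-05) for Dbp, 1.52 (SE 0.24, adjusted p = 7.61e-05) for Per3 and 0.94 (SE 0.16, adjusted p = 0.00013) for Tef on the log2 scale.

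**Figure D5:**
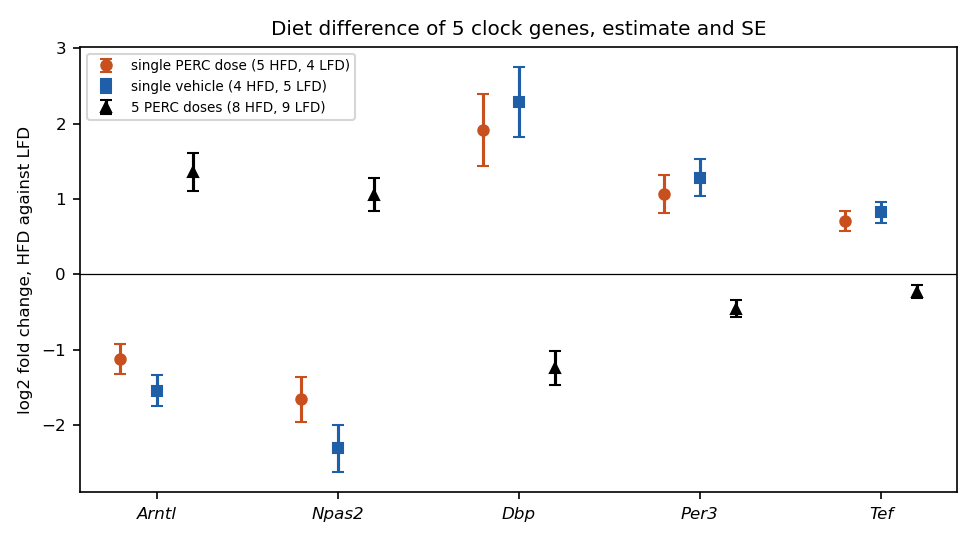
Log2 fold change between HFD and LFD (y, points with SE bars) of 5 clock genes in single-dose PERC mice, in single-regimen vehicle mice and in mice given 5 PERC doses. Arntl and Npas2 lie below 0 in both single-regimen comparisons and above 0 after 5 doses, and Dbp, Per3 and Tef lie the other way, with Tef after 5 doses not called (adjusted p = 0.104).

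The other genes among the 10 were Dtx4, a Notch pathway ubiquitin ligase, Slc16a1, the monocarboxylate transporter MCT1, Ypel2, Mtss1, a membrane-bending protein, and Slc23a3. Fga was among them too: it fell on HFD after 1 dose and rose after 5 (log2 fold change 0.78, adjusted p = 0.0136). The Fga difference was not called without LFD replicates 1 and 4 (-1.42, adjusted p = 0.161). Of 50 fatty acid oxidation genes, 26 were called after 5 doses, all higher (median 0.40), where 3.02% of all genes were called higher. These groups hold more libraries than those given 1 dose, and the list itself was not compared between the regimens. The median of 0.43 after 1 dose without LFD replicates 1 and 4, given above, cannot be weighed against it. Those libraries were left out after they were seen to be high in genes of this list, which raises the median by construction. For Pdk4 the difference between regimens was called (-2.94, SE 0.64, adjusted p = 0.0082), but without those 2 libraries it was -1.03 (SE 0.67, adjusted p = 0.989). Genes called in the same direction after 1 PERC dose, after 5 PERC doses and under single-regimen vehicle numbered 57. Ugt2b37, Slco1a1, Pzp, Rarres2, Synpr, Ces2c, Ebp, Anpep, Pvalb and Tyms were among those that were higher, and Ces1g, Cyp2a5, Bhmt, Stra6, Nqo1, Gsta3, Sult1c2, Spp1 and Slc7a7 among those that were lower.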

How the data were processed

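Each library came as a deposited table of gene symbols and raw read counts, which the authors had not scaled. The submitters' processing notes name DESeq2, HTSeq, TopHat2 2.0.13, Trimmomatic and bcl2fastq 2.17.1.14, and the build GRCm38 (mm10), without giving their roles. The library kit was a stranded one, per the labels' protocols; which gene models and which strand option HTSeq used is not given in the sources used here, and genes that overlap another are uncertain. In the 9 libraries 52.0% to 62.3% of reads were in genes, 16.7% to 28.4% in no feature and 7.26% to 25.3% aligned to several places; these last stayed out of library sizes and tests.

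Of 24499 genes, 14280 passed filterByExpr among single-regimen libraries, 14614 among repeated-regimen libraries and 15139 over both. Counts were scaled with TMM and tested with edgeR 4.0.16 (R 4.3.3, quasi-likelihood F test, robust dispersion) with 1 mean per group over the 25 libraries of the 6 single-regimen groups (47 libraries for 5 doses, 72 for the difference between regimens). SE was taken as the absolute log2 fold change over the root of its F statistic. Adjusted p-values are over all genes tested. DESeq2 1.42.0 was an alternative. Marker sums were compared with exact two-sided permutation tests over the 126 divisions of 9 libraries into 5 and 4. Log2 CPM used a prior count of 2. Among 16 pairs of libraries within the 2 groups, none agreed within counting noise (lowest chi-square per gene 10.7), so each counted as 1 replicate. Nothing says that libraries came from separate mice, and p-values measure spread among libraries, which may be technical. The scripts were tested on simulated data.

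The comparison, the 45 gene lists (25 pathways, 20 cell types) and the tests were chosen with earlier results of these data known. Named are the 15 largest rises and falls among called genes with a mean of at least 1 CPM (predicted genes left out), every called member of a list and 14 fixed genes, 1 of which is not reported here; for the regimen comparison, the 10 smallest p. Other genes named there were chosen after their values were seen. Gene coordinates are those of GENCODE for GRCm38, and promoter sequences those of RefSeq for GRCm38.p6, which held 32851 windows. Figures were drawn with matplotlib 3.10.9.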

Additional observations from a re-analysis of the deposited data

Results flagged for a closer look

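Of 242 groups of libraries tested for 1 far value (101 genes and 20 marker sums, each on 2 diets), 9 held a library far from the rest, and chance flags about 1 group in 20. On LFD, replicate 1 was high in Slc7a5 (6.94 CPM, others 3.52 to 4.09), in Stra6 (10.5 CPM, others 2.10 to 3.49) and in the summed urothelium markers (122 CPM, others 16.4 to 33.4). LFD replicate 3 was low in Slc22a4 (53.3 CPM, others 60.9 to 61.5), and LFD replicate 4 high in Fkbp5 (182 CPM, others 64.5 to 83.8). On HFD, replicate 1 was high in Ugt1a2 (2.66 CPM, others 0.548 to 1.13) and low in Slc6a20b (252 CPM, others 299 to 307), replicate 3 high in Cyp4a32 (20.7 CPM, others 7.83 to 8.59), and replicate 5 high in Ccna2 (6.22 CPM, others 3.58 to 4.06).

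For 12 of the 101 named genes, the log2 fold change between HFD and LFD after 1 PERC dose differed from that after 5 doses (edgeR, adjusted p under 0.05 over 15139 genes). The difference, 1 dose minus 5 doses, was positive for 5: Dbp (3.16), Per3 (1.52), Tk1 (1.22), Tef (0.938) and the pseudogene Alms1-ps2 (2.29). It was negative for 7: Pdk4 (-2.94), Npas2 (-2.72), Arntl (-2.48), Kcnip2 (-2.31), Fga (-2.21), Fgg (-2.06) and Aldh1a1 (-1.93). Without LFD replicates 1 and 4, the differences of Dbp, Per3, Tk1, Tef, Alms1-ps2, Npas2 and Arntl were still called, and those of Pdk4 (-1.03), Kcnip2 (-0.996), Fga (-1.42), Fgg (-1.26) and Aldh1a1 (-1.62) were not. The hour of death, the lanes and the number of doses cannot be told apart in this difference.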

How the results depend on the processing

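No paired analysis was possible because the labels give no replicate number that groups share, and replicates were numbered in accession order. Of 383 genes called, 93 were called in the same direction in all 9 runs without 1 library and under all 7 other settings (98 under the 7 alone). DESeq2 called 626 genes after 1 dose and 3 for PERC minus vehicle, and 2.68% of genes between vehicle diets. With lane as a covariate, these were 817, 1 and 3.07%, and 167 for the regimen difference. Adding adipocyte markers as covariate gave 373 genes after 1 dose, 344 of them among the 383, and the calls of Ugt1a2, Slc7a5 and Stc2 were lost. With only the compared groups fitted, they were 103 after 1 dose, 272 after 5 doses and 27 for the regimen difference. With no filter, 217 genes, 1.09% of more genes tested, were called between vehicle diets. Leaving out both LFD replicates 1 and 4, chosen after seeing the data, gave 131, and 32 for the regimen difference. Without 1 library, counts ran from 204 to 523 after 1 dose, from 1.04% to 1.65% of genes between vehicle diets (1.04% without HFD vehicle replicate 3, 1.05% without HFD vehicle replicate 5), from 0 to 3 for PERC minus vehicle and from 53 to 189 for the regimen difference.

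Adipoq reversed with adipocyte markers as covariate (0.20), but it is one of those markers, so that fit takes out its own difference. Without 1 library, Adipoq ran from -1.43 to 0.22, Pdk4 from -1.19 to 0.0092 and Fkbp5 from -0.29 to 0.31. None of the 3 was called in the comparison as reported. Medians moved for brown adipocyte markers with the adipocyte covariate (1.31), for proximal tubule (0.28) and hepatocyte markers (0.22) with shallow libraries kept and, without 1 library, for renin and vitamin D genes (-0.060 to 0.097), proximal tubule (0.028 to 0.18) and endothelial markers (-0.19 to 0.011). Summed markers, as mean log2 CPM, gave 0.086 for fibroblasts, 0.47 for brown adipocytes and 0.019 for skeletal muscle; without Kap the proximal tubule sum gave 0.22, and without Pvalb the muscle sum gave -0.23. Without 1 library, sums ran from -0.28 to -0.13 (thick limb), -0.0095 to 0.039 (podocytes), -0.16 to 0.044 (fibroblasts), -0.26 to 0.070 (brown adipocytes), -0.015 to 0.25 (hepatocytes) and -0.33 to -0.12 (erythroid). The cause of these shifts was not tested.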

Other observations

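The genes of this paragraph and the next lie outside the lists and were chosen after their values were seen. They come from the 57 called in the same direction after 1 PERC dose, after 5 PERC doses and under single-regimen vehicle. Enzymes of amino acid breakdown were among those lower on HFD. Kynu, kynureninase of the tryptophan pathway, stood at 32.6, 21.9, 28.5 and 20.1 CPM on LFD and 12.5, 7.55, 5.04, 10.3 and 10.4 CPM on HFD (log2 fold change -1.48, SE 0.28, adjusted p = 0.00348). Ddc, which makes dopamine from DOPA, was at 176.6, 154, 188 and 157 CPM on LFD and 97.2, 91.9, 94.1, 114 and 112 CPM on HFD (-0.73, SE 0.11, adjusted p = 0.000457). Uroc1 and Ftcd, which act in histidine breakdown, fell without overlap (-0.69, adjusted p = 0.00153, and -0.66, adjusted p = 0.0188). By that choice, these 4 moved the same way in all 3 comparisons.

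Complement component C2, chosen in the same way, was lower on HFD. It stood at 69.3, 55.6, 69.4 and 61.5 CPM on LFD and 36.3, 34.4, 35.5, 32.4 and 38.8 CPM on HFD (-0.85, SE 0.09, adjusted p = 1.82e-05). Prothrombin, encoded by F2, was at 1.60 to 2.28 CPM on LFD and at 0 to 0.439 CPM on HFD. Nudt19, a peroxisomal hydrolase of coenzyme A and its esters, rose from 371, 364, 581 and 378 CPM to 901, 826, 1215, 1016 and 868 CPM (1.19, SE 0.18, adjusted p = 0.000341). Adh1, alcohol dehydrogenase, rose without overlap (0.62, adjusted p = 0.00613), and Tnfsf10, the death ligand TRAIL, did so too (0.92, adjusted p = 0.00536).

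Of the 12 genes called in opposite directions after 1 and after 5 doses, Slc16a1 had log2 fold changes of -0.68 (adjusted p = 0.0232) and 1.24 (adjusted p = 5.67e-06), and the stress-responsive gene Ndrg1 of -0.61 (adjusted p = 0.0101) and 0.61 (adjusted p = 0.00199). Ypel2 (-0.81 and 0.85) and Dtx4 (-0.96 and 0.55) went the same way, and Tnfaip8 (0.60 and -0.44) and Mtss1 (0.36 and -0.25) the other.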
